A study of Mus musculus with 24 samples.

Results

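The insulin-like growth factor binding proteins (IGFBPs) are a family of secreted proteins, and their 7 mouse genes, Igfbp1 to Igfbp7, were followed here in the retina during photoreceptor degeneration. Members were taken by transcript identifier: 9 probe sets matched the 7 genes, of 1246 probe sets and 909 named genes on an array focused on glycans, lectins, cytokines and growth factors. Igfbp4 had 3 probe sets and each of the others had 1. RNA came from retinas of mutant mice (labelled RP mutant, P347S+) and of normal mice (P347S-), aged 1, 2, 3 or 4 months, with 3 arrays in each of the 8 groups and 24 in all. The mutant mice carry a transgene for rhodopsin, the light-sensing protein of rods, with the P347S change, and their rods degenerate slowly. The labels name neither the strain nor the promoter of the transgene, give the sex as unknown, and do not state whether an array holds 1 animal or several. A p therefore measures the spread between these samples, which may be technical, and with 3 arrays in a group the number of arrays limits the precision.

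IGFBPs bind the insulin-like growth factors Igf1 and Igf2 outside the cell, carry them, and release or withhold them from the receptor Igf1r. Several members also attach to extracellular matrix or to integrins and act without the growth factors. In the eye, IGF signalling is known for its roles in retinal vessel growth and in the survival of neurons and glia.

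Of the 7 genes, only Igfbp5 passed the test of genotype with all arrays in the fit: mutant retinas had more of it at 3 and 4 months, and when the 4 ages were averaged. It was 1 of 9 probe sets, where 12%, 12.9% and 22.6% of all probe sets were called in these 3 comparisons. The call at 4 months was less firm, and at 2 months the sign was opposite (-0.47) without passing. Igfbp7 was set apart by 3 arrays, 1 mutant and 2 normal, that read about 3 log2 units above the other 21 arrays, and these were the arrays with a very high signal for the lens gene Grifin. Igfbp1, Igfbp2, Igfbp3, Igfbp4 and Igfbp6 did not pass at any age, nor over the 4 ages. Among the growth factors that these proteins bind, Igf1 and Igf2 both gave a higher average in mutant than in normal retinas across ages. Of all probe sets, 13.8% were called higher over the 4 ages.

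The promoters of Igfbp5 and Igfbp7 are shown because the results turn on these 2 genes. Each is the 250 bases before the annotated start, from RefSeq on build GRCm38.p6, read 5′ to 3′ along the gene's own strand. The stretch for Igfbp5 is chr1:72874866-72875115 on the minus strand, where capitals mark GCCNNNGGC, a sequence bound by AP-2 factors, and TATTTAA. The stretch for Igfbp7 is chr5:77408046-77408295 on the minus strand, where capitals mark the GC box GGGCGG on either strand.
Igfbp5: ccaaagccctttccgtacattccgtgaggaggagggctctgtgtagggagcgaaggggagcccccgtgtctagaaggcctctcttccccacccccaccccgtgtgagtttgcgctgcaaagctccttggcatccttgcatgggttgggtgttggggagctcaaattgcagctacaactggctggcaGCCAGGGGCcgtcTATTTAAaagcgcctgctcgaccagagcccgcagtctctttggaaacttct
Igfbp7: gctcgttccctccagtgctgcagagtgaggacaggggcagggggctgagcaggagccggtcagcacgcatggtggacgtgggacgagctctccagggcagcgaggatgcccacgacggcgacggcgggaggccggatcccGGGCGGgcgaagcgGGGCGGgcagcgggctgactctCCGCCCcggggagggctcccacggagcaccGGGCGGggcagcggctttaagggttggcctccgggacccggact

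The Igfbp5 promoter held 1 TATTTAA, whose first base lies 51 bases before the start, and 1 GCCNNNGGC with its first base at 64. Over 32851 mouse promoters of the same length, searched on both strands, 4.18% held TATTTAA and 13.7% held GCCNNNGGC. The Igfbp7 promoter held 4 GC boxes, the nearest at 44 bases, and 32.7% of promoters held at least 1. It had 26 CpG dinucleotides and 74.0% G and C, against 10 CpG and 58.8% in Igfbp5 and a median of 6 CpG over all promoters. TATAAA was found in neither and was in 12.4% of promoters, while Igfbp4 held 1 at 28 bases. The E box letters CANNTG occurred at 1 place in Igfbp5 and not in Igfbp7, and in 66.2% of promoters. CpG lies inside each GC box, the other motifs do not overlap in either printed stretch, and a match of letters is not a measured binding site. In the genome Igfbp5 is the direct neighbour of Igfbp2 on chromosome 1, and Igfbp1 the direct neighbour of Igfbp3 on chromosome 11.

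Values are log2 RMA signals, which ran from 1.90 to 14.17 over the table with array medians between 5.15 and 5.34. A probe set's signal depends on its probes, so levels are not compared between genes and only the place of each probe set among all is given. The mean Igfbp2 signal lay above 89.4% of probe sets, Igfbp5 above 87.2% and Igfbp7 above 85.2%. The 3 Igfbp4 probe sets lay above 75.2%, 86.2% and 82.1%, and Igfbp6 above 59.4%. Igfbp1 (21.8%) and Igfbp3 (10.9%) were among the dimmest probe sets, where small differences carry little weight. The probe sets of Igfbp7 and of Igfbp4 with suffix s or x may share probes with other transcripts.

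The tissue label could hardly be checked: of 9 rod and cone genes listed the array measured only Gnb1, a rod transducin subunit that other cells also use, with 12.62 to 13.04 in mutant arrays against 12.64 to 13.26 in normal ones. Of the microglial list 5 of 10 genes were measured, with a mean per array of 5.53 to 6.23 in mutant and 5.09 to 5.35 in normal retinas. The Müller glial list was measured by 5 of 10 genes, Fgf2, Cd44, Vcam1, Icam1 and Lgals1. Gfap, Vim, Glul, Rlbp1 and Slc1a3 were not measured, so this list does not identify Müller glia. It averaged 6.21 to 7.03 in mutant arrays against 5.67 to 6.45 in normal ones. The endothelial list (5 of 16) averaged 5.15 to 5.70 against 5.14 to 5.44. The blood list was measured only by Ppbp and Pf4 (2 of 6), so it does not cover Hba-a1, Hbb-b1, Alas2 or Ptprc. These 2 genes averaged 3.54 to 3.79 in mutant arrays against 3.63 to 3.87 in normal ones. In whole retina, fewer cells of a type and less RNA per cell cannot be told apart. Grifin stood above 10 in 3 arrays, mutant 2 months replicate 2 (11.29), normal 2 months replicate 2 (11.33) and normal 4 months replicate 1 (10.16), against 5.69 to 8.77 in the other 21. Dcn, the matrix proteoglycan decorin, was highest in mutant 4 months replicate 3 (6.51) and in normal 2 months replicates 3 (6.90) and 2 (6.45).

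Igfbp5, a matrix-associated member that can both hold back and prolong the action of the growth factors, gave the clearest difference by genotype. At 1 month the mutant arrays read 9.12, 9.17 and 9.03 and the normal arrays 9.00, 8.59 and 9.03. All 3 mutant arrays were above the 3 normal ones, with the closest pair nearly touching, and the difference of 0.24 ± 0.18 (SE) did not pass (limma adjusted p = 0.826). At 2 months the mutant arrays read 8.86, 8.67 and 9.03, against 8.76, 9.67 and 9.54 in normal arrays. Here the groups overlapped and the sign was opposite, at -0.47 ± 0.18, which did not pass either (adjusted p = 0.179, limma).

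At 3 months Igfbp5 read 9.32, 9.47 and 9.85 in mutant retinas and 8.67, 8.74 and 8.71 in normal retinas. The 3 normal arrays lay within 0.1 of each other and the lowest mutant array stood well above them. The group means were 9.54 ± 0.27 in mutant and 8.71 ± 0.04 in normal retinas (SD, n = 3 each), a difference of 0.84 ± 0.18 (SE), or 1.79-fold, that passed the test (limma adjusted p = 0.00555). At 4 months the values were 9.25, 9.05 and 9.44 in mutant and 8.64, 8.83 and 8.58 in normal retinas, again without overlap. Igfbp5 was 1.48-fold higher in mutant retinas, by 0.56 ± 0.18 (limma adjusted p = 0.0440). Over the 4 ages the mean difference was 0.29 ± 0.09, or 1.22-fold (adjusted p = 0.0238, limma).

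**Figure D1:**
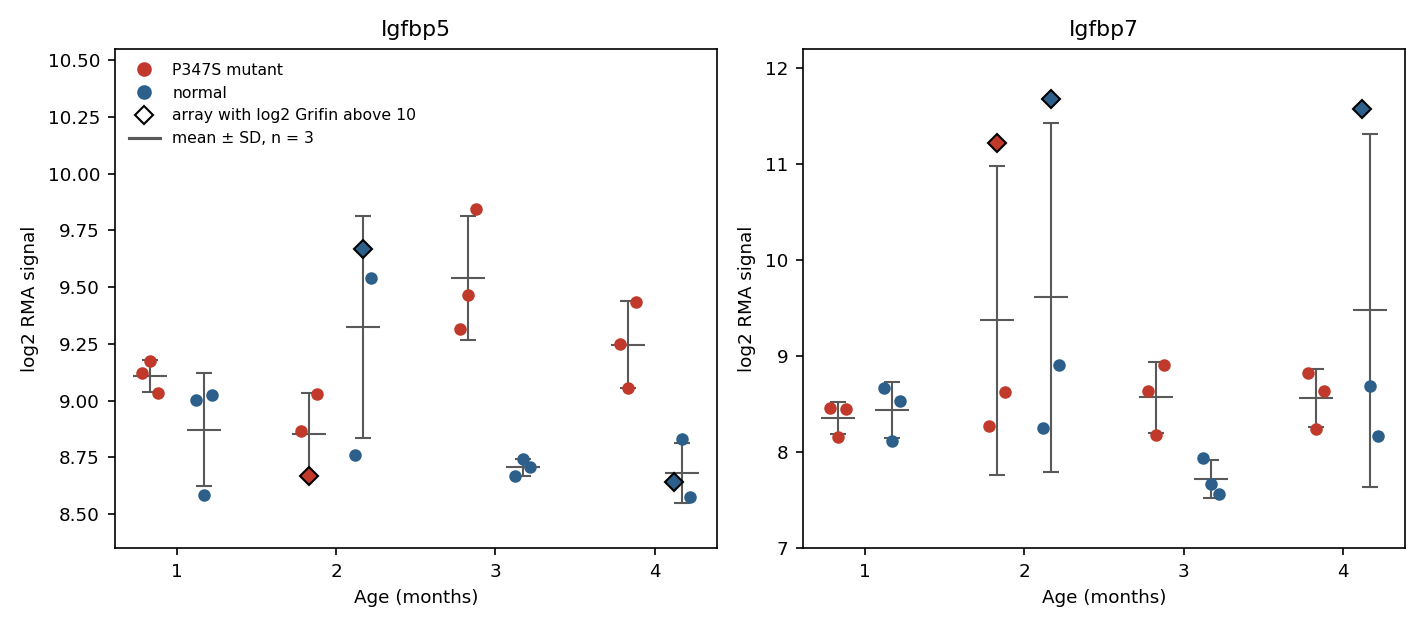
Log2 RMA signal of Igfbp5 (left) and Igfbp7 (right) on each array by age in months, with mutant arrays left of normal arrays and bars for the mean ± SD of 3 arrays. Igfbp5 is higher in all mutant arrays at 3 and 4 months, and the 3 arrays with log2 Grifin above 10 (diamonds) hold the 3 highest Igfbp7 values.

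Igfbp5 was the 1 IGFBP probe set of 9 called at 3 months, where 12% of all probe sets were called. It was also the 1 called at 4 months, where 12.9% of all were called, and over the 4 ages, where 22.6% were called. A share of 1 in 9 is near the background at 3 and 4 months and below that over the 4 ages. At 1 month none of the 9 passed, against 0.321% of all, and at 2 months none passed, against 3.45%. No array left out alone ended the Igfbp5 call at 3 months or over the 4 ages. With array weights the difference over the 4 ages was 0.21 and did not pass (limma adjusted p = 0.0695).

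The call at 4 months was less firm. It ended without mutant 4 months replicate 1 (adjusted p = 0.0991) or 3 (0.150) and without normal 4 months replicate 1 (0.115) or 3 (0.148), all by limma. It also ended, at adjusted p between 0.0510 and 0.0549, without any 1 of mutant 1 month replicates 1, 2 and 3, mutant 2 months replicate 1, mutant 3 months replicate 2, and normal 3 months replicates 1, 2 and 3. With the replicate number as a block its adjusted p was 0.0568, after another quantile normalization 0.0620, and without the 3 arrays of high Grifin 0.0869.

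The difference of Igfbp5 thus had the same sign at 1, 3 and 4 months and the opposite sign at 2 months, but the test of whether it changed with age did not pass (limma F test, adjusted p = 0.0729, where 0.321% of all probe sets passed). Without normal 2 months replicate 1 that test passed (adjusted p = 0.00142), as it did without mutant 3 months replicate 1 (0.0468), after centring each array on its median (0.0426) and with array weights (0.0161). At 2 months the 2 highest normal arrays, replicates 2 and 3, were also those with the highest Dcn among normal arrays. Without normal 2 months replicate 1, which read low, the difference at 2 months was -0.75 and passed (adjusted p = 0.00591, limma), and with array weights it was -0.64 (0.0427). Other settings brought it nearer to 0 without a call. It was -0.21 without the 3 arrays of high Grifin (0.857) and -0.14 with Grifin and Dcn as covariates (limma adjusted p = 0.837). Without the 3 arrays of highest Dcn it was 0.09, with only replicate 1 (8.76) left among normal arrays of this age. The arrays of high Grifin include the lowest mutant (8.67) and highest normal (9.67) array of 2 months. Leaving out such arrays moves the difference toward 0 by construction, and leaving out the lowest normal array moves it away. Neither is support.

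Igfbp5 and Dcn followed each other across arrays, with r = 0.67 over 24 arrays and r = 0.69 for the deviations from the group means. Within genotypes r was 0.70 over 12 mutant and 0.80 over 12 normal arrays, as a description, since arrays of a group share tissue, age and processing. Mean Dcn was 4.39, 4.50, 5.55 and 5.07 in mutant retinas of 1, 2, 3 and 4 months. In normal retinas it was 4.18, 5.98, 4.79 and 4.78. Mean Dcn thus differed in the same direction as mean Igfbp5 at each age, including 3 months. The connective tissue list, with 4 of 11 genes measured (Dcn, Lum, Fmod and Bgn), averaged 4.52 to 5.63 in mutant arrays against 4.36 to 6.22 in normal ones. With Grifin and Dcn added to the model as covariates, the Igfbp5 difference was 0.66 at 3 months (adjusted p = 0.00905), 0.53 at 4 months (0.0161) and 0.31 over the 4 ages (0.00263, limma). The average over ages was 0.41 without the 3 arrays of highest Dcn and 0.55 without the arrays of 2 months. Both are no support, since leaving out the 2 highest normal arrays of 2 months, or the age of opposite sign, raises the average by construction. The part of signal from the microglial and Müller glial lists in the Igfbp5 difference was not tested.

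The 3 named genes whose signal was most like that of Igfbp5 over the 24 arrays were Dhrs1, Tgfbr3 and Lum. Dhrs1, a member of the short-chain dehydrogenase and reductase family, had r = 0.89 (0.79 for deviations from the group means). Tgfbr3, the TGF-beta co-receptor betaglycan, had r = 0.86 (0.79 for deviations), and Lum, the matrix proteoglycan lumican, had r = 0.79 (0.71). Over the 4 ages Dhrs1 was higher in mutant retinas by 0.18 (limma adjusted p = 0.0410), while Tgfbr3 differed by 0.22 (0.0781) and Lum by 0.06 (0.716) without passing.

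**Figure D2:**
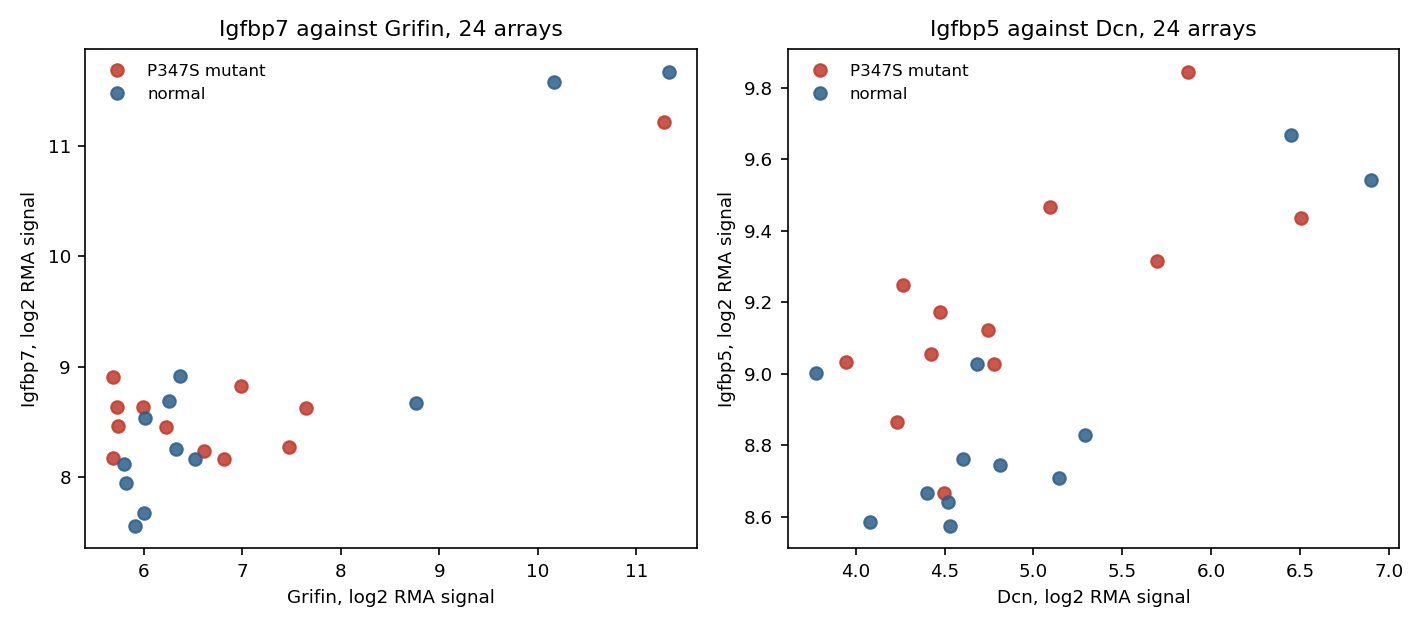
Left, log2 signal of Igfbp7 against Grifin. Right, log2 signal of Igfbp5 against Dcn. Each point is 1 of 24 arrays, 12 mutant and 12 normal, and the 3 arrays with Grifin above 10 form a separate cluster at the upper right of the left panel, while Igfbp5 and Dcn form a continuous cloud.

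Igfbp7 binds the insulin-like growth factors only weakly and is a secreted protein known from vessel walls and basement membranes. It read 11.22 in mutant 2 months replicate 2, 11.67 in normal 2 months replicate 2 and 11.58 in normal 4 months replicate 1. The other 21 arrays lay between 7.56 and 8.91 with a median of 8.45, so no array fell between the clusters. The gap in means was 3.11 log2 units, the third largest of the 1246 probe sets. In all, 11 probe sets read higher in these 3 arrays than in every other array, 0.883% of the table, and no other IGFBP was among them. Normal 1 month replicate 1, with the fourth highest Grifin (8.77), read 8.67 for Igfbp7, within the range of the remaining arrays.

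With all arrays Igfbp7 had a within-group SD of 1.10, at rank 3 of the 1246 probe sets, against a median SD of 0.13 over all. Without the 3 arrays its SD was 0.30, at rank 50. No genotype difference passed with all arrays: the youngest mice differed by -0.08 ± 0.80, those of 2 months by -0.24 ± 0.80, those of 3 months by 0.85 ± 0.80 and those of 4 months by -0.91 ± 0.80 (SE, limma adjusted p between 0.496 and 0.990). Over the 4 ages it was -0.10 ± 0.40 (adjusted p = 0.882, limma). The 8 groups share 1 estimate of the spread, so that the 3 arrays enter the error at every age.

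At 3 months, where none of the 3 arrays lies, Igfbp7 read 8.64, 8.18 and 8.91 in mutant retinas and 7.94, 7.67 and 7.56 in normal retinas. The groups did not overlap, and the normal arrays of this age were the 3 lowest of all 24. Without the 3 arrays of high Grifin the same difference of 0.85 had an SE of 0.22 and passed (limma adjusted p = 0.0186). Those arrays hold the 3 highest Igfbp7 values, so leaving them out lowers the SE by construction, and this pass is no support. The difference at 3 months also passed in a fit to the 6 arrays of that age alone (limma adjusted p = 0.0478). It did not pass after both tissue genes, Grifin and Dcn, were added as covariates (0.73 ± 0.35, adjusted p = 0.175). Nor did it pass with the replicate number as a block (0.85 ± 0.39, adjusted p = 0.176, limma). At 1 month the arrays overlapped, at 8.46, 8.16 and 8.45 in mutant and 8.67, 8.12 and 8.54 in normal retinas. Without the 3 arrays the differences at the other ages were -0.08 ± 0.22 at 1 month, -0.13 ± 0.26 at 2 months and 0.14 ± 0.24 at 4 months, none of which passed. The mean of the 4 differences was then 0.19 ± 0.12 (limma adjusted p = 0.254). The sign at 4 months thus turned with normal 4 months replicate 1, the array of that age with high Grifin.

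The named genes most like Igfbp7 over 24 arrays were B3gnt5, which starts lacto-series glycolipids, the Wnt ligand Wnt7b and the fibroblast growth factor receptor Fgfr3. In the 3 arrays B3gnt5 read 7.12 to 8.05 against 3.73 to 5.21 in the other 21, Wnt7b 8.51 to 9.26 against 6.36 to 7.06, and Fgfr3 7.06 to 7.73 against 4.52 to 5.57. Over the 21 other arrays their r with Igfbp7 was 0.44, 0.14 and 0.22 in that order. The likeness over 24 arrays therefore rests on the 3 arrays. Of the 7 lens genes listed only Grifin was measured.

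Igfbp2, an abundant binding protein of nervous tissue and cerebrospinal fluid, averaged 8.98 ± 0.06, 9.56 ± 0.07, 9.45 ± 0.15 and 9.48 ± 0.15 in mutant retinas of 1, 2, 3 and 4 months (SD, n = 3). In normal retinas it averaged 9.11 ± 0.17, 9.31 ± 0.20, 9.28 ± 0.49 and 9.28 ± 0.12 at the same ages. Its mutant arrays were all above the normal ones at 2 months (9.48 to 9.63 against 9.08 to 9.46), as were 9.07% of all probe sets. The difference over the 4 ages was 0.13 ± 0.08 and did not pass (limma adjusted p = 0.286). Between 1 and 4 months it gained 0.50 ± 0.17 in mutant retinas (adjusted p = 0.118) and 0.17 ± 0.17 in normal retinas (adjusted p = 0.990, limma), and neither passed. No IGFBP passed this comparison, in which 2.65% of all probe sets were called in mutant and 0% in normal retinas. The gain in mutant retinas passed with array weights (adjusted p = 0.0173) and in a fit to the 6 arrays compared (0.0395, limma). It also passed without normal 3 months replicate 1 (0.0410) or 3 (limma adjusted p = 0.0308). Those arrays are not in this comparison and hold the highest (9.75) and lowest (8.77) Igfbp2 values. Leaving either out kept the gain at 0.50 and lowered the shared SE by construction, so these passes are no support. The genotype difference in this gain was 0.33 ± 0.23 and did not pass (limma adjusted p = 0.692, where 0.241% of all probe sets were called).

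Igfbp4 holds the growth factors in an inactive complex until it is cut by the protease Pappa, which was not measured. Its 3 probe sets differed over the 4 ages by -0.02 ± 0.05 (no suffix), 0.07 ± 0.11 (suffix s) and 0.08 ± 0.08 (suffix x), and their mean by 0.04 ± 0.08 (limma adjusted p = 0.711). The probe set with no suffix was slightly lower in all mutant arrays at 1 month (7.52 to 7.54 against 7.59 to 7.69), and overlapped at every other age. The s and x probe sets overlapped at all 4 ages. No Igfbp4 probe set passed at any age.

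Igfbp6, which prefers Igf2 over Igf1, read 5.89, 5.47 and 6.12 in mutant and 6.02, 6.34 and 6.44 in normal retinas at 2 months. The arrays overlapped, and the difference of -0.44 ± 0.15 did not pass (limma adjusted p = 0.101). It passed without mutant 2 months replicate 3 (0.0326), without normal 2 months replicate 1 (0.0369) and with array weights (limma adjusted p = 0.0171). The arrays left out are the highest mutant and the lowest normal array, so the gap widens by construction and these passes are no support. Over all single arrays left out, the difference ran from -0.58 to -0.26, with limma adjusted p up to 0.450. The lowest mutant array, replicate 2, was an array of high Grifin. At 3 months Igfbp6 read 6.24, 6.03 and 6.05 in mutant and 5.91, 5.92 and 5.88 in normal retinas, apart but by only 0.20 ± 0.15 (0.361). The difference over the 4 ages was -0.05 ± 0.07, and its change with age did not pass (limma F test, adjusted p = 0.257).

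**Figure D3:**
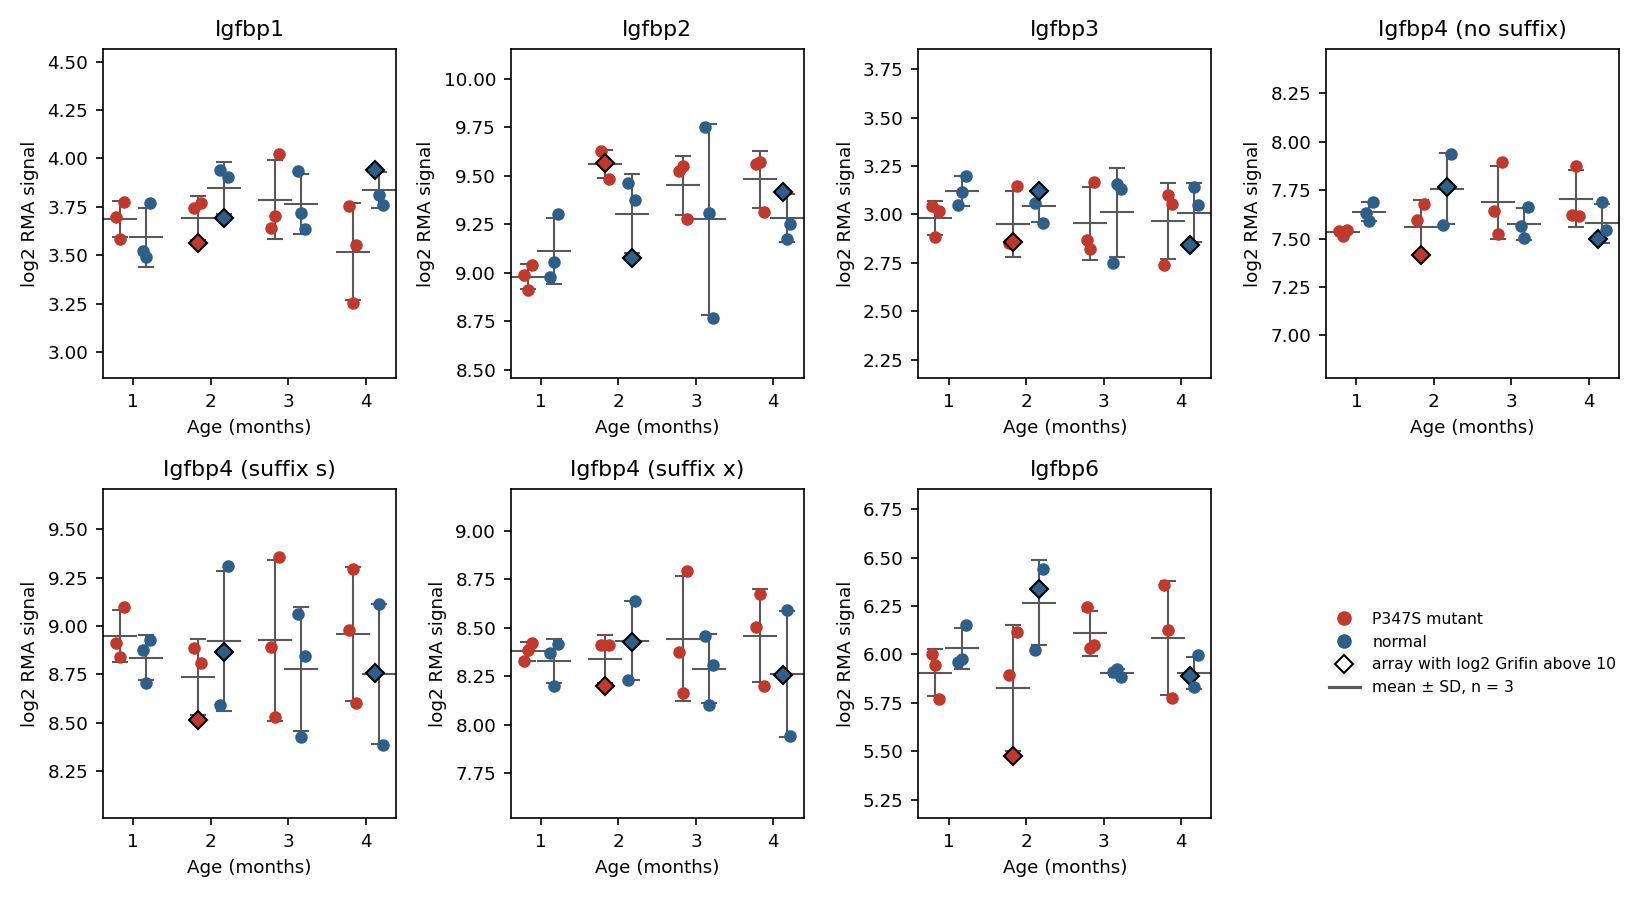
Log2 RMA signal of the other 7 IGFBP probe sets on each array by age in months, with mutant arrays left of normal arrays and bars for the mean ± SD of 3 arrays. The genotypes overlap at most ages, and the arrays with log2 Grifin above 10 (diamonds) lie within the cloud of the others in most panels.

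The 2 members with low signal showed little. Igfbp1, a binding protein made mainly by liver and controlled by insulin, read 3.75, 3.25 and 3.55 in mutant and 3.94, 3.81 and 3.76 in normal retinas at 4 months. All mutant arrays were lower there, with the closest pair nearly touching, and the difference of -0.32 ± 0.12 did not pass (limma adjusted p = 0.106). It passed without mutant 4 months replicate 1 (0.0385) and with array weights (limma adjusted p = 0.0420). That array is the highest mutant one, so leaving it out widens the difference by construction, and this pass is no support. Over all single arrays left out, the difference ran from -0.43 to -0.18, with limma adjusted p up to 0.443. Igfbp3, the main carrier of the growth factors in blood together with Igfals, ranged from 2.74 to 3.20 over all arrays. It was lower in all mutant arrays at 1 month (2.88 to 3.05 against 3.05 to 3.20 in normal arrays, with no tie), and its difference over the 4 ages was -0.08 ± 0.06 (0.345, limma).

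Counted over the 9 probe sets, arrays of the genotypes did not overlap for 3 at 1 month (1 higher in mutant retinas and 2 lower), where 22.1% of all probe sets did not overlap. The count was 1 at 2 months (higher, against 17.4% of all), 3 at 3 months (all higher, against 32.6%) and 2 at 4 months (1 higher and 1 lower, against 30%). At 3 months the members without overlap were Igfbp5, Igfbp6 and Igfbp7, and 13.2% of all probe sets were higher without overlap there. Groups of 3 against 3 cannot reach an exact p below 0.1, so these counts carry no test. The median difference over the 4 ages was -0.02 for the IGFBP probe sets and -0.03 for all. A p that misses the threshold does not show that the genotypes are alike: the 95% intervals over the 4 ages reached from -0.05 to 0.30 for Igfbp2 and from -0.92 to 0.73 for Igfbp7.

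**Figure D4:**
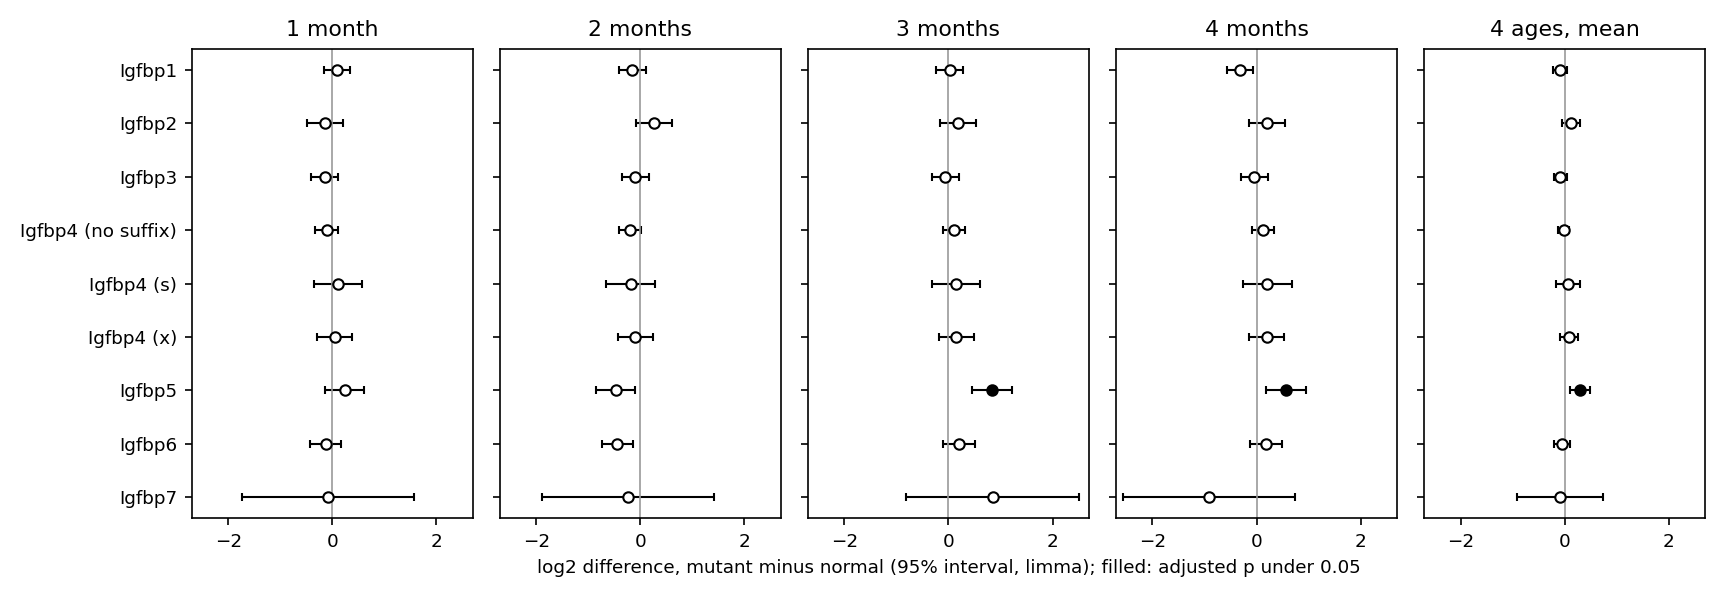
Difference in log2 signal, mutant minus normal, for the 9 IGFBP probe sets at each age and over the 4 ages, with the 95% interval from limma; filled points have an adjusted p under 0.05. Only Igfbp5 has filled points, in the panels of 3 months, 4 months and the mean, and Igfbp7 has the widest intervals.

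Other genes of the pathway were read from a list that was chosen with earlier results known. Of 30 genes of the IGF pathway listed, 10 were measured, by 12 probe sets. Over the 4 ages 2 of the 12 were higher in mutant retinas and none was lower, where 13.8% of all probe sets were called higher and 8.83% lower. The median difference of the list was -0.06. At 1 and 2 months none of the 12 passed, against 0.321% and 3.45% of all probe sets. At 3 months 1 did (Igf1, against 12% of all) and at 4 months 2 did (Igf1 and Igf2, against 12.9%), all higher in mutant retinas, and these shares are near the background.

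Igf1, which signals through Igf1r for growth and survival, was higher in mutant retinas by 0.27 ± 0.06 over the 4 ages, or 1.21-fold (limma adjusted p = 0.00180). At 2 months its signal was lowest in both genotypes, at 7.94, 7.87 and 7.74 in mutant and 7.81, 7.61 and 7.60 in normal retinas. At 3 months it read 8.40, 8.60 and 8.48 in mutant and 7.97, 8.05 and 8.31 in normal retinas, without overlap, a difference of 0.38 ± 0.12 (limma adjusted p = 0.0379). At 4 months it read 8.33, 8.52 and 8.77 in mutant and 7.97, 8.28 and 8.21 in normal retinas, again apart, by 0.39 ± 0.12 (limma adjusted p = 0.0329). The difference over the 4 ages passed without each single array. The call at 3 months ended without mutant 3 months replicate 2 (0.140) or 3 (0.0914) or normal 3 months replicate 1 (0.139) or 2 (0.126), and that at 4 months without mutant 4 months replicate 2 (0.0743) or 3 (0.170) or normal 4 months replicate 1 (0.172) or 3 (0.0668). Another quantile normalization ended both, at 0.193 for 3 months and 0.317 for 4 months, as did adding Grifin and Dcn as covariates, at 0.0718 and 0.0690, and fitting only the groups compared, at 0.0891 and 0.128. With array weights the call at 3 months ended (0.0681). The call at 4 months also ended without the 3 arrays of high Grifin (0.194) or of highest Dcn (limma adjusted p = 0.180).

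Igf2, a ligand of Igf1r that the receptor Igf2r clears, was higher in mutant retinas over the 4 ages by 0.17 ± 0.05, or 1.13-fold (limma adjusted p = 0.0188). At 1 month the mutant arrays read 9.76, 9.78 and 9.73 and the normal arrays 9.82, 9.83 and 9.84, and the difference of -0.07 ± 0.10, with all mutant arrays slightly lower, did not pass. At 4 months the mutant arrays read 10.31, 10.62 and 10.15, against 9.92, 10.02 and 9.97 in normal retinas, all higher. This difference of 0.39 ± 0.10 passed (limma adjusted p = 0.0140). In mutant retinas Igf2 was 0.61 ± 0.10 higher at 4 months than at 1 month (limma adjusted p = 0.00317), and in normal retinas the gain of 0.14 ± 0.10 did not pass (adjusted p = 0.959, limma). The genotype difference in this gain was 0.47 ± 0.15 and did not pass (limma adjusted p = 0.152). It passed with array weights (0.0105) and without mutant 4 months replicate 3 (0.0437, limma). That array is the lowest mutant one of 4 months, so leaving it out raises the difference by construction, and this pass is no support. Leaving out the 3 arrays of highest Dcn, which include it, gave the same difference of 0.57 and is not a separate setting here. The call at 4 months ended without mutant 4 months replicate 2 (0.111) or normal 4 months replicate 1 (0.0570), and in a fit to only the groups compared (0.0942). At 2 months the difference of 0.29 ± 0.10 did not pass (0.138) but did so without normal 2 months replicate 1 (0.0462). The call over the 4 ages ended without the arrays of 2 months (0.0728) and without the 3 arrays of highest Dcn (limma adjusted p = 0.0506).

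**Figure D5:**
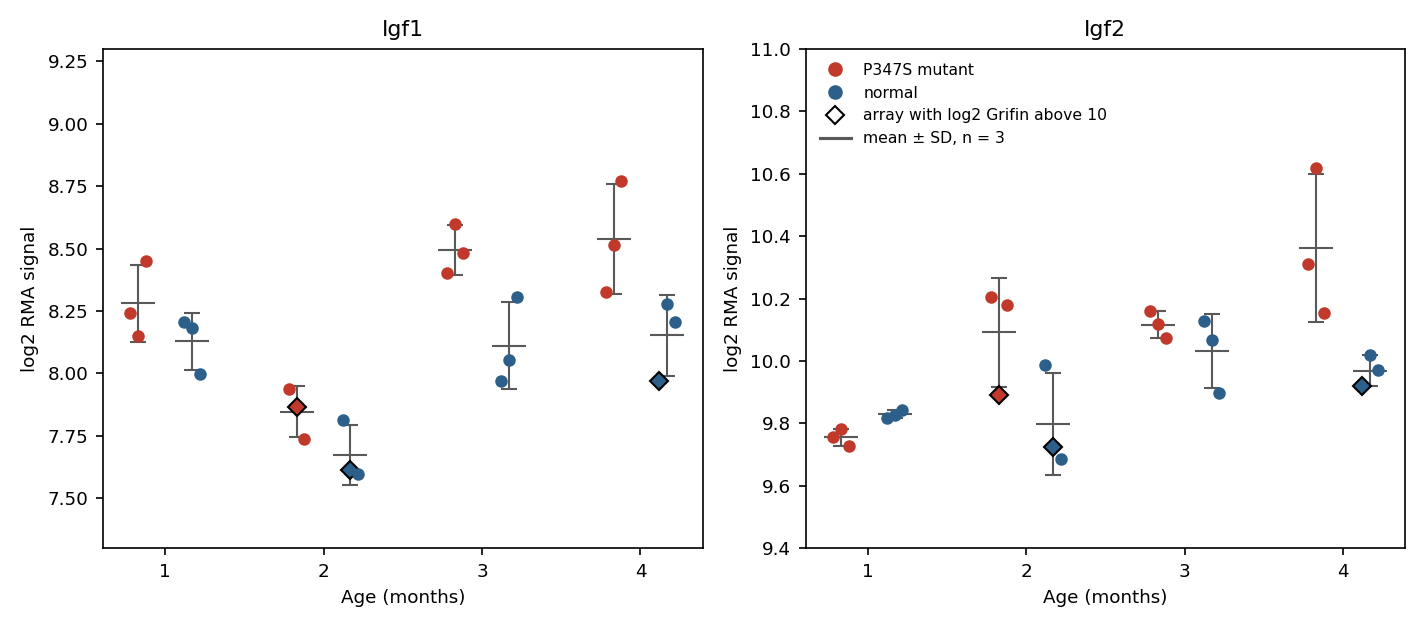
Log2 RMA signal of Igf1 (left) and Igf2 (right) on each array by age in months, with mutant arrays left of normal arrays and bars for the mean ± SD of 3 arrays. Mutant arrays are all above normal arrays at 3 and 4 months for Igf1 and at 4 months for Igf2, and the lowest Igf1 values of both genotypes are those of 2 months.

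The receptors did not pass at any age. Igf1r, the signalling receptor, differed by -0.25 ± 0.08 at 2 months, with all mutant arrays (9.73 to 9.84) below all normal ones (9.99 to 10.11), and just missed the threshold (limma adjusted p = 0.0729). Igf2r, which takes Igf2 to lysosomes, was lower in all mutant arrays at 2 months, at 6.58, 6.38 and 6.38 in mutant and 6.77, 7.05 and 7.03 in normal retinas. The difference of -0.50 ± 0.15 also missed the threshold (limma adjusted p = 0.0568). It passed without normal 2 months replicate 1 (0.0342), the lowest normal array, which widens the difference by construction. It also passed without mutant 3 months replicate 2 (0.0493) or 3 (0.0375) and without normal 3 months replicate 3 (0.0473). Without mutant 4 months replicate 3 it passed as well (limma adjusted p = 0.0450). The arrays of 3 and 4 months are not in this comparison, so the difference stayed at -0.50 and only its error and adjustment changed. Over all single arrays left out, the limma adjusted p ran from 0.0342 to 0.205. Igf2r also passed at 2 months with the replicate number as a block over all arrays (0.0499), but not in the blocked fit to the 6 arrays of 2 months (0.0829). It passed after another quantile normalization (0.0114), with array weights (0.0296), and without probe sets below the 25th percentile (0.0477) or the median (limma adjusted p = 0.0376). Over the 4 ages Igf1r differed by -0.09 ± 0.04 (0.120) and Igf2r by -0.04 ± 0.07 (0.689, limma). Igfals, the blood partner of Igfbp3, differed by -0.09 ± 0.07, and Igfbpl1, an IGFBP-like secreted protein, by -0.07 ± 0.05, and neither passed. Without the arrays of 2 months Igfals differed by -0.12 ± 0.04 and passed (limma adjusted p = 0.0439). Its difference at 2 months was 0.02, and its arrays of that age had the widest spread. Leaving them out thus moves the average away from 0 and lowers the SE by construction, so this pass is no support.

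The other listed genes are named with the family but are not binding proteins of the classical kind. Igf2bp1, Igf2bp2 and Igf2bp3 are RNA-binding proteins of the Igf2 transcript. Their differences over the 4 ages were 0.01 ± 0.09 for Igf2bp1, -0.08 ± 0.05 for Igf2bp2, and -0.02 ± 0.05 and -0.08 ± 0.05 for the s and x probe sets of Igf2bp3, none past the test. That of Igf2bp2 was -0.16 and passed after another quantile normalization (limma adjusted p = 0.0338). Igf2bp2 mutant arrays were all below the normal ones at 2 months (6.80 to 6.94 against 7.09 to 7.25) and at 3 months (7.03 to 7.07 against 7.17 to 7.42), without passing (limma adjusted p = 0.143 and 0.0715). The difference of Igf2bp2 at 3 months passed after another quantile normalization (0.0166), without normal 3 months replicate 3 (0.0346) or mutant 4 months replicate 1 (0.0498), and that of Igf2bp1 at 2 months, -0.33 ± 0.19, passed without normal 2 months replicate 1 (0.0204). Esm1, an endothelial proteoglycan with an IGFBP-like domain, had 2 probe sets among the lowest of the table and differed by -0.07 ± 0.04 and -0.05 ± 0.09.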

How the data were processed

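Total RNA of mouse retinas was extracted with Trizol and hybridised as biotinylated cRNA to a focused Affymetrix array, per the labels' protocols. The deposited values are log2 signals from RMA as run by the authors, per the submitters' processing notes; its version, the arrays normalized together and any filter are not given in the sources used here. Near-equal array medians (5.15 to 5.34) and the range of values were checked. Nothing was scaled again.

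Probe sets were named by matching their transcript accession to RefSeq genes (963 of 1246 matched, 283 were left unnamed). Groups came from the labels. One model with a mean per genotype and age was fitted to all 24 arrays and 1246 probe sets with limma 3.58.1 in R 4.3.3 (lmFit and eBayes, 16 residual and 4.37 prior degrees of freedom). All tests had 2 sides, p-values were adjusted by Benjamini and Hochberg's method across the table in each comparison, and the threshold was 0.05. The fit over the 4 ages was run on simulated arrays with independent noise and known changes, the same at each age. That run does not test calls at single ages, or arrays that deviate together. Differences are mutant minus normal, ± SE.

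The 7 genes, the pathway and marker lists and the alternatives were chosen with earlier results of these data known. All IGFBP probe sets and measured pathway genes are named, with the 3 named genes most like Igfbp5 and Igfbp7 by Pearson r. Leaving out the arrays of highest Dcn, or of 2 months, was chosen after seeing the values of these genes. Same-numbered mutant and normal arrays deviated together (r above 0.1) in 3 of 12 pairs, all 3 at 2 months. Deviations from a mean of 3 arrays offset each other, so the 3 values of r at an age are not independent. At 2 months replicate 2 had high Grifin in both genotypes. The numbers may pair the arrays of that age, but these values cannot tell, and the labels do not say that they do.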

Additional observations from a re-analysis of the deposited data

Results flagged for a closer look

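For 2 genes of the pathway the genotype difference went in opposite directions at 2 ages, with all 3 mutant arrays on 1 side of all 3 normal arrays each time. Of all 1246 probe sets, 22.1% did not overlap at 1 month, 17.4% at 2 months and 30% at 4 months. How many of them reversed in this way was not counted, so the 2 genes cannot be called unusual. Igf2r was higher in mutant retinas at 1 month (7.02 to 7.24 against 6.60 to 6.96 in normal retinas) and lower at 2 months (6.38 to 6.58 against 6.77 to 7.05). The test of a change of its difference with age did not pass (limma F test, adjusted p = 0.198). Igf2 was lower in mutant retinas at 1 month (9.73 to 9.78 against 9.82 to 9.84) and higher at 4 months (10.15 to 10.62 against 9.92 to 10.02), and its change with age did not pass either (limma F test, adjusted p = 0.260).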

How the results depend on the processing

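Of 2614 values recomputed for the IGFBP probe sets under 39 settings, 2583 kept their side of the threshold, 18 lost a call, 13 gained one and 0 called values changed sign. Only Igfbp5 was called in the main fit, so most of the values that kept their side were uncalled and stayed so. All 18 lost calls were those of Igfbp5 at 4 months or over the 4 ages. The counts of IGFBP probe sets called moved as follows. Array weights gave 2 at 2 months, where 0 were called otherwise, 2 at 4 months and 0 over the 4 ages, where 1 was called, 1 for 4 months minus 1 month in mutant retinas and 2 for the change with age, where 0 were called. At 3 months 2 were called, in place of 1, without the arrays of high Grifin and with only the arrays of the groups compared, which also gave 1 for 4 months minus 1 month in mutant retinas. At 4 months 0 were called after quantile normalization, with the replicate block, without the arrays of high Grifin and at an adjusted p under 0.01, which also left 0 over the 4 ages. Centring each array gave 1 for the change with age. Leaving out 1 array at a time gave 0 to 2 calls at 2 months, 0 to 1 at 4 months, 0 to 1 for 4 months minus 1 month in mutant retinas and 0 to 1 for the change with age. Leaving out the array nearest the other genotype widens a difference by construction, so a call gained that way is no support, here or in the pathway list. The same holds for a deviating array of a group not compared, whose removal lowers the shared SE.

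For the pathway list, the count at 2 months was 1, in place of 0, after quantile normalization, without probe sets below the 25th percentile or the median, with array weights and with the replicate block, and the gene was Igf2r each time. At 3 months it was 0, in place of 1, with array weights, with the covariates, with only the groups compared and at an adjusted p under 0.01. After quantile normalization it stayed at 1, since Igf1 lost its call and Igf2bp2 gained one. At 4 months it was 1, in place of 2, after quantile normalization, with the covariates, and without the arrays of high Grifin or of highest Dcn, and 0 with only the groups compared and at an adjusted p under 0.01. Over the 4 ages it was 1, in place of 2, at an adjusted p under 0.01 and without the arrays of highest Dcn. It was 3 after quantile normalization, with Igf2bp2 added, and stayed at 2 without the arrays of 2 months, where Igf2 lost its call and Igfals gained one. For the change of the difference between 1 and 4 months it was 1, in place of 0, with array weights and without the arrays of highest Dcn. Leaving out 1 array gave 0 to 3 at 2 months, 0 to 2 at 3 months, 0 to 2 at 4 months and 0 to 1 for that difference. The cause of these changes was not tested, beyond the smaller number of arrays where some were left out. With the replicate number as a block, fitted at 2 months alone, Igfbp5 had an adjusted p of 0.278 and Igfbp7 of 0.432 (limma), and no IGFBP call changed. The age comparison within a genotype could not be fitted with the block. Igfbp1 and Igfbp3 fell below the 25th percentile of mean signal and had no value under that filter. Only 3 arrays a group and few cell markers on the array limit what could be read.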
